A study of Penicillium oxalicum with 6 samples.

Results

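The genes described here are the 46 consecutive IDs POX09580 to POX09625 among the 9834 gene IDs measured in Penicillium oxalicum, a filamentous fungus that grows on plant biomass. All 46 are listed in every library and all are counted below, including those with few reads. They were chosen from ID number, in a stretch picked because many of its genes were higher in the POX06509 mutant, so the strain differences given here are a description of the values that chose them and carry no test. The sources used here give no product, position or sequence for them, nor do they say whether neighbouring numbers are neighbours on a chromosome.

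Total RNA was sequenced from mycelium of a POX06509 deletion strain (labelled MuPOX06509, 3 libraries) and a Ku70 mutant (labelled Ku70, 3 libraries). Both were grown for 24 h at 28 °C and 180 rpm in medium with Avicel, a microcrystalline cellulose; 1% Avicel and 1 g of mycelium are given in the labels. Ku70 acts in non-homologous end joining, and fungi without it are common hosts for targeted deletion. The growth text names spores of the Ku70 mutant for all 6 libraries, and the labels do not say whether MuPOX06509 also lacks Ku70, so the deletion and other strain differences cannot be told apart. The letters F, S and T name the 3 libraries of a strain, and the labels do not say whether they carry an order. Values below are always in the sequence F, S and T. Nothing says that the libraries of a strain came from separate cultures, so their spread may be technical.

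In filamentous fungi, genes of one secondary metabolite pathway often lie side by side and are switched on and off together, and genes for cellulose breakdown are switched on when cellulose is the carbon source. Runs of neighbouring genes that change together are therefore commonly looked for in fungal regulator mutants. That is background, and no gene from POX09580 to POX09625 can be placed in such a pathway here.

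Libraries held 14605326 to 15219424 estimated counts, and 0 counts in a library allows a level of up to 3 counts, which is 0.197 to 0.205 CPM (counts scaled to library size). Correlations of log2(CPM + 1) over the 8336 genes with enough counts to test were 0.982, 0.982 and 0.995 among the MuPOX06509 libraries, the highest between S and T. Among the Ku70 libraries they were 0.983 to 0.990, the highest between F and T. POX06509 itself had 0, 0 and 1 counts in MuPOX06509 and 1405, 2580 and 1851 counts in Ku70, which matches the strain labels. In RNA from whole mycelium, more cells with a transcript and more of it per cell cannot be told apart.

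Of the 46 genes, 34 had enough counts to be tested and 12 did not. By edgeR's quasi-likelihood fit over all genes, 26 of the 34 were called higher in MuPOX06509 at a Benjamini-Hochberg adjusted p under 0.05, beside 5.33% of all 8336 tested genes. None was called lower, beside 7.27% of all tested genes; 1 gene, POX09580, was lower at an unadjusted p under 0.05, and DESeq2 likewise called none lower. In all 26, each MuPOX06509 library lay above each Ku70 library in FPKM (fragments scaled to gene length and library size), as it did for 14.8% of all tested genes. These shares describe how the stretch was picked and are not evidence for it. The 46 genes together made up 0.0851%, 0.0702% and 0.0548% of the counts in MuPOX06509 and 0.0299%, 0.0264% and 0.0302% in Ku70.

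The rises formed several blocks, not a single one. With a block taken as at least 2 consecutive IDs that were all called higher, 25 of the 26 genes lay in 5 blocks: POX09587 to POX09591 (5 genes), POX09596 to POX09601 (6 genes), POX09603 to POX09609 (7 genes), POX09615 to POX09618 (4 genes) and POX09621 to POX09623 (3 genes). POX09611 was called higher alone, between POX09610 and POX09612, which were not called. The gap at POX09602 was one of depth, since that gene was too low to test, with 34, 27 and 7 counts in MuPOX06509 and 0, 5 and 4 in Ku70. Its 3 MuPOX06509 counts all lay above its Ku70 counts. If genes too low to test are passed over, the blocks on either side join into 1 block of 13 called genes, POX09596 to POX09609. The other gaps held at least 1 gene that had enough counts to be tested and was not called.

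**Figure D1:**
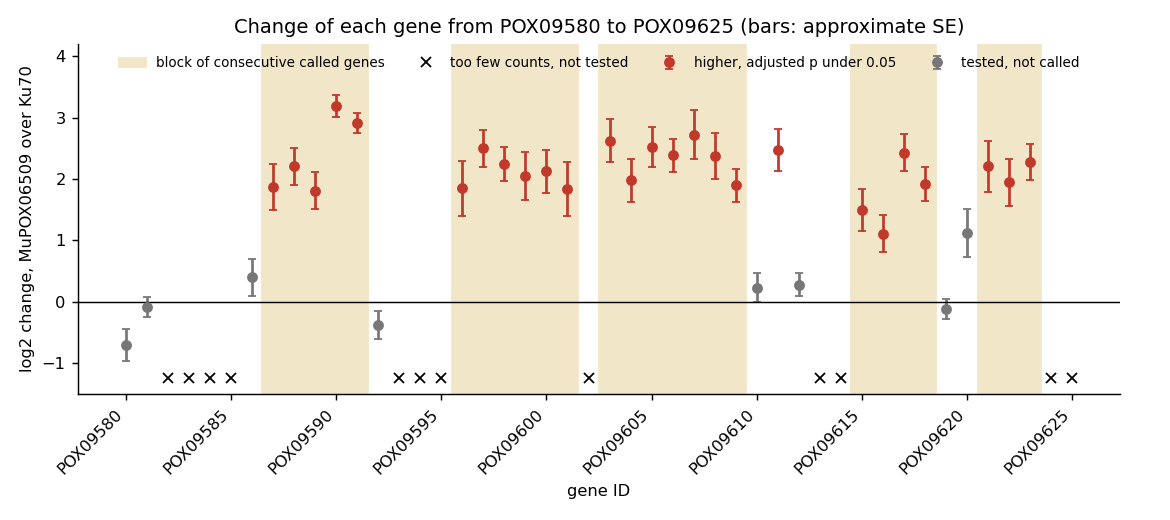
The log2 change of MuPOX06509 over Ku70 (vertical axis) for each ID from POX09580 to POX09625 (horizontal axis), with approximate standard errors as bars; shaded bands are blocks of consecutive called genes and crosses mark genes too low to test. Called genes lie between 1.11 and 3.19, 25 of them in 5 bands and POX09611 alone outside them; the other genes between bands are untested or uncalled, POX09620 among them at 1.12.

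In the first block, POX09587 to POX09591, the last pair of genes stood above the rest. POX09590 had 1192, 1283 and 1352 counts in MuPOX06509 and 118, 160 and 158 in Ku70. Its levels were 109, 116 and 120.5 FPKM against 10.4, 14.3 and 13.9 FPKM. The 3 MuPOX06509 values were close together and far above the Ku70 values, and the fitted log2 change of 3.19 ± 0.18 (SE) was the largest of the 26 in this fit, at 9.12-fold. POX09591 had 1722, 1599 and 1451 counts in MuPOX06509 and 212, 233 and 218 in Ku70. It was the most abundant transcript of the 46 per unit length in MuPOX06509, at 442, 404 and 363 FPKM against 52.4, 58.4 and 53.9 FPKM. Both groups of POX09591 were tight, and its log2 change of 2.91 ± 0.16 (SE) was the second largest in this fit. POX09591 is short, with an effective length of 266 bases implied by its counts and FPKM.

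The other 3 genes of this block changed less and varied more between MuPOX06509 libraries. POX09588 had 428, 297 and 206 counts in MuPOX06509 and 92, 60 and 59 in Ku70. Its levels were 76.5, 52.2 and 35.8 FPKM against 15.8, 10.5 and 10.2 FPKM, a log2 change of 2.21 ± 0.30 (SE). Library F was the highest in both strains. POX09587 had 52, 37 and 27 counts against 8, 15 and 10, which gave 9.0, 6.30 and 4.55 FPKM against 1.33, 2.53 and 1.67 FPKM and a log2 change of 1.86 ± 0.37 (SE). POX09589 had 125, 94 and 68 counts against 32, 20 and 34, which gave 29.0, 21.4 and 15.4 FPKM against 7.14, 4.53 and 7.61 FPKM and a log2 change of 1.81 ± 0.30 (SE). For both genes library F again held the highest MuPOX06509 value and library T the lowest, and the strains did not overlap.

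The second block, POX09596 to POX09601, held 6 genes with log2 changes of 1.83 to 2.50 and a median of 2.08. POX09600 was the most abundant, with 385, 241 and 206 counts in MuPOX06509 and 100, 37 and 64 in Ku70. Its levels were 79.2, 48.8 and 41.3 FPKM against 19.8, 7.43 and 12.7 FPKM, a log2 change of 2.12 ± 0.34 (SE). The F library was highest in each strain, and the lowest MuPOX06509 value lay well above the highest Ku70 value. POX09599 had 293, 154 and 121 counts against 73, 40 and 31, or 39.7, 20.5 and 15.9 FPKM against 9.51, 5.28 and 4.05 FPKM. POX09601 had 185, 128 and 63 counts against 59, 19 and 33, or 16.4, 11.2 and 5.43 FPKM against 5.03, 1.64 and 2.82 FPKM. For POX09601 the strains nearly met, at 5.43 FPKM in MuPOX06509 library T and 5.03 FPKM in Ku70 library F. Their log2 changes were 2.05 ± 0.39 (SE) for POX09599 and 1.83 ± 0.44 (SE) for POX09601.

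The remaining 3 genes of the second block were lower per length. POX09597 had 241, 219 and 121 counts in MuPOX06509 and 38, 37 and 32 in Ku70, or 12.3, 11.0 and 6.04 FPKM against 1.87, 1.85 and 1.58 FPKM. With a log2 change of 2.50 ± 0.30 (SE) it rose the most in this block, and its Ku70 values were nearly equal. POX09598, whose implied effective length of 2866 bases is the longest of the 46, had 233, 222 and 133 counts against 55, 33 and 42, or 5.55, 5.2 and 3.08 FPKM against 1.26, 0.77 and 0.96 FPKM. Its log2 change was 2.24 ± 0.28 (SE). POX09596 had 57, 32 and 35 counts against 11, 4 and 21, or 3.63, 2.0 and 2.17 FPKM against 0.67, 0.25 and 1.29 FPKM, a log2 change of 1.85 ± 0.45 (SE). Its Ku70 values rest on few counts and differ widely, which makes it one of the less certain rises.

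The third block, POX09603 to POX09609, was the longest, with 7 genes, log2 changes of 1.90 to 2.72 and a median of 2.38. POX09606 carried most of its reads, with 1578, 1228 and 826 counts in MuPOX06509 and 321, 205 and 203 in Ku70. Its levels were 74.7, 57.2 and 38.1 FPKM against 14.6, 9.47 and 9.27 FPKM, a log2 change of 2.38 ± 0.27 (SE). POX09604 was of like abundance, with 475, 298 and 193 counts against 120, 52 and 87, or 80.9, 49.9 and 32.0 FPKM against 19.7, 8.64 and 14.3 FPKM. In both genes the F library was the highest of each strain, and the log2 change of POX09604 was 1.98 ± 0.36 (SE).

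POX09607 had the largest change of the third block on the fewest reads. It had 61, 47 and 33 counts in MuPOX06509 and 6, 11 and 5 in Ku70, or 11.2, 8.47 and 5.89 FPKM against 1.06, 1.97 and 0.88 FPKM. The fitted log2 change was 2.72 ± 0.40 (SE), and the ratio of summed counts, scaled for library size, was 6.69 (exact 95% interval 4.25 to 11.0, which covers counting error only). POX09603 had 59, 46 and 39 counts against 10, 9 and 5, or 3.96, 3.03 and 2.54 FPKM against 0.64, 0.59 and 0.32 FPKM. Its log2 change was 2.63 ± 0.35 (SE), and the strains were far apart. POX09605 had 124, 135 and 73 counts against 14, 24 and 22, or 3.68, 3.94 and 2.11 FPKM against 0.40, 0.69 and 0.63 FPKM, a log2 change of 2.52 ± 0.33 (SE). It was one of the few called genes whose highest MuPOX06509 library was S.

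The other genes of the third block were POX09608 and POX09609. POX09608 had 216, 129 and 123 counts in MuPOX06509 and 40, 39 and 15 in Ku70, or 32.0, 18.9 and 17.7 FPKM against 5.71, 5.71 and 2.21 FPKM. Its counts are fractional in every library, which marks reads shared with another gene, so its log2 change of 2.37 ± 0.38 (SE) is less certain. POX09609 had 309, 300 and 197 counts against 101, 55 and 71, or 17.9, 17.1 and 11.1 FPKM against 5.64, 3.12 and 3.98 FPKM. With a log2 change of 1.90 ± 0.26 (SE) it had the smallest rise of the block. POX09611, the called gene with uncalled neighbours, had 436, 320 and 183 counts against 79, 40 and 59, or 57.6, 41.6 and 23.5 FPKM against 10.04, 5.16 and 7.51 FPKM. Its log2 change of 2.47 ± 0.34 (SE) was as large as those inside the third block.

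**Figure D2:**
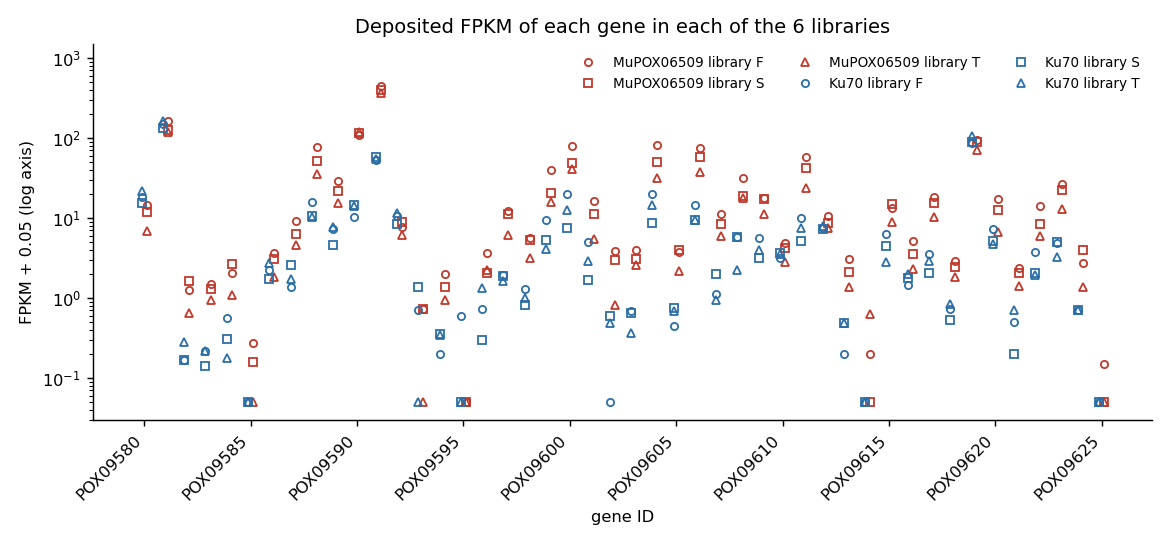
The deposited FPKM plus 0.05 on a log axis for each ID from POX09580 to POX09625 (horizontal axis), with a symbol for each library, red for MuPOX06509 and blue for Ku70. Within the blocks the red symbols lie above the blue ones, POX09591 is the highest at 363 to 442 FPKM in MuPOX06509, and POX09581 and POX09619 overlap between strains.

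The fourth block, POX09615 to POX09618, had log2 changes of 1.11 to 2.43 (SD 0.57 over its 4 genes), a spread near that of the first block (SD 0.62 over 5 genes); the second block had an SD of 0.25, the third 0.31 and the last 0.17. POX09617 had 117, 99 and 68 counts in MuPOX06509 and 23, 13 and 19 in Ku70, or 18.2, 15.2 and 10.3 FPKM against 3.45, 1.98 and 2.85 FPKM, a log2 change of 2.43 ± 0.31 (SE). POX09618 had 100, 85 and 64 counts against 24, 17 and 28, or 2.89, 2.41 and 1.80 FPKM against 0.67, 0.48 and 0.78 FPKM, a log2 change of 1.91 ± 0.28 (SE). POX09615 had 51, 58 and 35 counts against 25, 17 and 11, or 13.4, 14.99 and 8.96 FPKM against 6.32, 4.36 and 2.79 FPKM, a log2 change of 1.495 ± 0.34 (SE). Its strains lay closer than those of POX09617. POX09616 changed least of the 26, with 3.58 ± 1.41 FPKM (SD, n = 3) in MuPOX06509 and 1.70 ± 0.269 FPKM (SD, n = 3) in Ku70 and a log2 change of 1.11 ± 0.31 (SE). Its lowest MuPOX06509 value of 2.24 FPKM, in T, lay just above its highest Ku70 value of 1.94 FPKM, also in T. In 9 of 14 other fits POX09616 was not called, and the fourth block then held only POX09617 and POX09618.

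In the last block, POX09621 to POX09623, the changes were close to each other. POX09623 had 543, 464 and 269 counts in MuPOX06509 and 104, 103 and 68 in Ku70, or 26.5, 22.2 and 12.8 FPKM against 4.88, 4.90 and 3.19 FPKM, a log2 change of 2.27 ± 0.30 (SE). POX09622 had 152, 92 and 65 counts against 41, 22 and 21, or 14.2, 8.42 and 5.89 FPKM against 3.67, 2.0 and 1.89 FPKM, a log2 change of 1.94 ± 0.38 (SE). POX09621 had 45, 39 and 27 counts against 9, 3 and 13, or 2.35, 2.0 and 1.37 FPKM against 0.45, 0.15 and 0.65 FPKM, a log2 change of 2.21 ± 0.41 (SE). In all 3 genes MuPOX06509 library F was the highest and library T the lowest.

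Among the genes called higher, the size of the rises was rather even in the edgeR fit. The log2 changes of the 26 called genes had a median of 2.21 (4.61-fold), quartiles of 1.90 and 2.46 and an SD of 0.44. The median standard error of a single gene was 0.33. It holds differences between libraries that these genes shared, so it does not measure the spread expected between genes. In all, 22 of the 26 lay within 1.5-fold of the median, all were at least 2-fold higher, 16 were at least 4-fold higher and only POX09590 was at least 8-fold higher. Without POX09590 and POX09591 the SD over the other 24 genes was 0.37. The call itself leaves out small changes. Over all 34 tested genes the SD was 1.01, and 21 lay within 1.5-fold of their median of 1.96. The spread also depends on the scale. By limma on log2(FPKM + 1) the 26 genes had an SD of 0.54 and a median of 1.74. With a pseudocount of 5 these were 0.66 and 1.12. Over all 444 genes called higher in the series the log2 changes had a median of 1.48 and an SD of 1.34, with 66 of them at least 8-fold. The block medians ran from 1.71 in the fourth block to 2.38 in the third. The ratio of the summed CPM between strains was 7.24 in the first block, where POX09590 and POX09591 held most of the reads, and 4.43, 4.80, 3.18 and 4.61 in the others.

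Larger and less even rises were seen in 2 other stretches of rising IDs picked in the same way, the only ones compared here. POX01150 to POX01200 held 19 called genes of 44 tested, 18 of them in 1 block, with log2 changes of 1.49 to 7.70 and an SD of 2.06. POX01178, with no Ku70 count, is set there at its lower bound of 4.76, taken from 3 counts summed over the Ku70 libraries. The median of 4.76 is that bound itself and so a lower limit. With the fitted change of POX01178 the median was 5.58. POX05835 to POX05885 held 19 called genes of 47 tested in 2 blocks, the longer of 15 genes, with log2 changes of 1.53 to 5.35, a median of 3.63 and an SD of 1.27. In Ku70 the median level of the called genes was 3.71 FPKM in POX09580 to POX09625, against 0.70 FPKM and 0.587 FPKM in these ranges. All 3 ranges were chosen on the strain difference, so their differences were not tested.

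**Figure D3:**
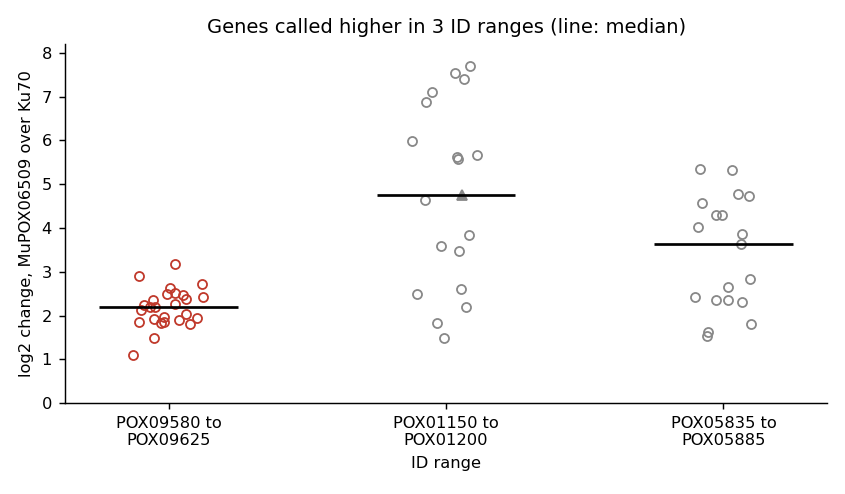
The log2 change of MuPOX06509 over Ku70 (vertical axis) for each gene called higher in 3 ID ranges (horizontal axis), with the median as a line. The triangle is POX01178 at its lower bound, which is also the median of its range. The 26 genes of POX09580 to POX09625 lie between 1.11 and 3.19, while the others reach 7.70 and 5.35.

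Between and around the blocks lay 8 tested genes that were not called. POX09581 and POX09619 were among the most abundant of the 46 in Ku70. POX09581 was at 165, 127 and 120.4 FPKM in MuPOX06509 and 148, 135 and 163 FPKM in Ku70, and POX09619, between the fourth and last blocks, was at 95.3, 88.9 and 70.0 FPKM against 87.8, 88.7 and 106 FPKM. The strains overlapped for both, with log2 changes of -0.08 ± 0.16 (SE) and -0.12 ± 0.16 (SE). POX09592, just after POX09591, was at 7.63, 8.92 and 6.02 FPKM against 10.4, 8.31 and 11.4 FPKM, so the step from a 7.496-fold higher gene to an uncalled gene took 1 ID. POX09610 and POX09612, on either side of POX09611, were at 3.90 ± 1.03 against 3.40 ± 0.248 FPKM and at 8.88 ± 1.64 against 7.49 ± 0.323 FPKM (SD, n = 3), with log2 changes of 0.23 and 0.28.

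The remaining uncalled genes were POX09580, POX09586 and POX09620. POX09580, the first ID, was the only 1 of the 46 in which each MuPOX06509 library lay below each Ku70 library. No share over all genes stands beside this. It was at 14.4, 11.7 and 6.92 FPKM against 18.3, 15.5 and 21.5 FPKM, a log2 change of -0.71 ± 0.27 (SE) that was not called. Its counts were fractional in every library, which marks reads shared with another gene, as were those of POX09581 and POX09610. POX09586, just before the first block, was at 3.62, 3.0 and 1.79 FPKM against 2.21, 1.68 and 2.66 FPKM, and the strains overlapped. POX09620, with fractional counts in every library, was at 17.4, 12.6 and 6.69 FPKM against 7.16, 5.10 and 4.74 FPKM. Its log2 change of 1.12 ± 0.39 (SE) was like that of POX09616 but was not called in the main fit. It was called without MuPOX06509 library T and with the letter as a replicate block, and the last block then started at POX09620. By limma with a pseudocount of 1 or 0.1, the last block instead ran on to POX09624.

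The 12 genes too low to test mostly had more counts in MuPOX06509, 10 of the 12 by their sums. In 7 of them, POX09582, POX09583, POX09584, POX09594, POX09602, POX09613 and POX09624, each MuPOX06509 library lay above each Ku70 library in FPKM. No share over all genes too low to test stands beside these counts, so they are a description only. POX09583 had 16, 14 and 10 counts in MuPOX06509 and 2, 1 and 2 in Ku70, a scaled ratio of 8.35 (exact 95% interval 3.29 to 27.1, counting error only). For POX09582 the counts were 10, 13 and 5 against 1, 1 and 2, and for POX09584 they were 15, 20 and 8 against 4, 2 and 1. POX09582 to POX09584 thus lie next to each other before the first block, separated from it by POX09585, with 3 counts in all, and the uncalled POX09586. The other 5 genes, POX09585, POX09593, POX09595, POX09614 and POX09625, had at most 10 counts over the 6 libraries. POX09585, POX09614 and POX09625 had no Ku70 count, and no fold is given for them.

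At the edges, the IDs just outside were not called. Below POX09580, POX09579 had no count in any library and POX09578 was at 55.0, 80.3 and 49.9 FPKM in MuPOX06509 and 78.8, 59.5 and 47.2 FPKM in Ku70. Just inside, POX09580 and POX09581 were not called, and at the upper end POX09624 was too low to test and POX09625 had 1 count in all. Above it, POX09626 was at 3.39, 3.76 and 2.86 FPKM against 2.21, 2.16 and 2.47 FPKM, a log2 change of 0.58 ± 0.20 (SE) that was not called, and POX09627 was at 4.79, 4.06 and 4.49 FPKM against 5.60, 3.61 and 8.66 FPKM. Of the 25 IDs above POX09625, 22 were tested, with no gene called higher and 1, POX09636, called lower. The 25 IDs below POX09580 were different, with 8 of 15 tested genes called higher, all from POX09555 to POX09570. In the main fit no rise was thus called past the upper edge. Below the lower edge, rises went on after a gap from POX09571 to POX09586 without a call. That gap depends on the low-count filter. Without it, POX09582 to POX09584 were called higher by edgeR and by limma on log2(FPKM + 1). POX09584 was also called by limma with its own filter.

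The genes also varied together between libraries of the same strain. The stretch was chosen on strain differences that hold these same library values, so this pattern is a description only. In MuPOX06509, 30 of the 34 tested genes were highest in library F by normalised CPM and 32 were lowest in library T, where 43.5% and 32.9% of all tested genes were. The pattern F above S above T was seen in 29 of the 34 genes (85.3%), against 24.4% of all tested genes and 25.1% of the 418 genes called higher elsewhere. The uncalled genes shared it, with 7 of 8 highest in F and all 8 lowest in T, POX09581 and POX09619 among them. The median of log2 F over T was 0.83 in the 34 genes, against 0.02 over all tested genes and 0.08 over the other genes called higher. Summed over the 24 called genes other than POX09590 and POX09591, MuPOX06509 libraries held 445.7, 327.7 and 217.5 CPM, and Ku70 libraries 91.7, 63.9 and 63.1 CPM.

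POX09590 did not follow this pattern, and POX09591 followed it with a small difference. Their log2 F over T in MuPOX06509 was -0.13 and 0.30, whereas the other 24 called genes ran from 0.51 to 1.499. On counts scaled for library size, F over T was 0.914 for POX09590 (exact 95% interval 0.844 to 0.988), 1.23 for POX09591 (1.15 to 1.32) and 2.15 for their neighbour POX09588 (1.82 to 2.55), intervals that cover counting error only. Together the pair held 202.9, 194.3 and 188.3 CPM in MuPOX06509 and 21.2, 27.2 and 23.5 CPM in Ku70. The pair was grouped after its values were seen, and its difference from the other genes was not tested. The rise of POX09591 lay within the standard error of that of POX09607, and without Ku70 library S POX09607 (3.17) ranked above POX09591 (2.99) on the log2 scale.

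In Ku70 fewer of the genes shared a highest library. Of the 34 tested genes, 14 were highest in library F, 10 in S and 10 in T, and the median of log2 F over T was 0.18. The called genes leaned to F there too, with 13 of 26 highest in F, against 31.6% of all tested genes, and a median of 0.39, while 1 of the 8 uncalled genes was highest in F and their median was -0.10. Along the IDs, the 22 tested genes above POX09625 had a median log2 F over T of -0.25 in MuPOX06509, and the 15 below POX09580 had 0.49. Over all 8303 windows of 34 consecutive tested genes this median ran from -0.33 to 0.83 in MuPOX06509, and the window from POX09580 to POX09623 stood at the top of that range, shared by 3 windows that overlap. In Ku70 the windows ran from -0.29 to 0.23, and the window from POX09580 to POX09623, at 0.18, also lay in the upper part of that range. The windows were examined after the pattern was seen, and what sets the libraries apart was not tested.

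**Figure D4:**
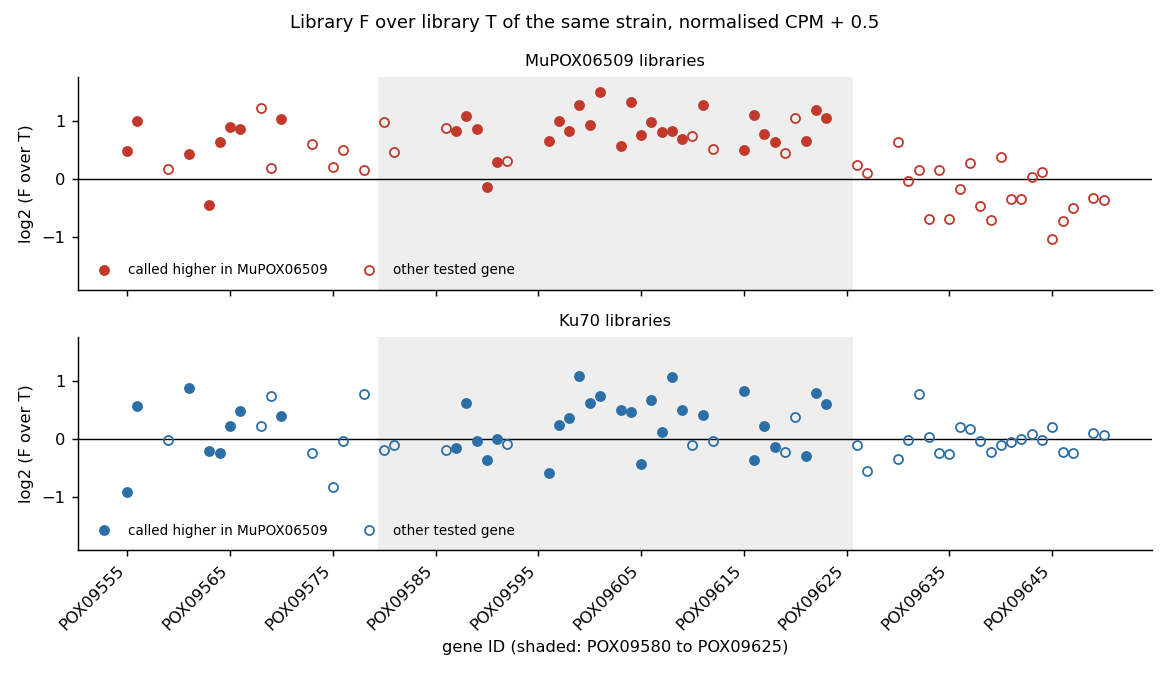
The log2 ratio of library F over library T of the same strain (vertical axes; normalised CPM + 0.5) for each tested gene from POX09555 to POX09650 (horizontal axis), filled where the gene was called higher in MuPOX06509. In MuPOX06509 (upper panel) all genes in the shaded stretch but POX09590 lie above 0, with a median of 0.83, and those past POX09625 fall to a median of -0.25; in Ku70 (lower panel) they scatter around 0.18.

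The strain difference of the called genes therefore depended on which library was read, without changing its direction. Set against the Ku70 mean, the median log2 difference over the 26 genes was 2.33, 1.82 and 1.48 in MuPOX06509 libraries F, S and T, on log2(CPM + 0.5). Each of the 26 genes was above its Ku70 mean in each MuPOX06509 library. Without MuPOX06509 library F, 23 genes were called higher, POX09596, POX09601 and POX09616 being lost, and the log2 changes of the 26 had a median of 1.95 and a range of 0.77 to 3.22. POX09580 was then called lower. Without MuPOX06509 library S the calls of POX09615 and POX09616 were lost, without Ku70 library F those of POX09596 and POX09616, without Ku70 library S that of POX09616, and without Ku70 library T those of POX09601, POX09615 and POX09616. Counts were fractional in at least 1 library for 10 of the 46 genes, 5 of them called, and among tested genes with whole counts 21 were called and the median log2 change was 2.01.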

How the data were processed

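The authors deposited an expected count (an estimate that splits reads fitting several genes) and an FPKM per gene and library, per the file headers. The submitters' processing notes name BWA 0.7.10-r789, DESeq2, RSEM 1.2.12 and Bowtie2 2.1.0 without saying what each did. The sources used here give no build, annotation or strand setting, so overlapping genes cannot be separated. None of the 9834 IDs matched the RefSeq table of assembly ASM172317v3.

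Expected counts were rounded and tested across all genes with edgeR 4.0.16 in R 4.3.3 (TMM, filterByExpr with a minimum count of 10, quasi-likelihood F test, strain as the only term), after a test on simulated data. Standard errors are the log2 change over the square root of F. Normalised CPM uses the TMM factors. No library repeated another of its strain (chi-square per degree of freedom at least 14.5). Alternatives were other scaling and filters, DESeq2 1.42.0, limma 3.58.1 on log2(FPKM + pseudocount), the letter as a block, and each library left out. The genes, ranges and alternatives were chosen with earlier results of these data known; by rule, per-library values are given for the 25 called genes with the largest change.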

Additional observations from a re-analysis of the deposited data

How the results depend on the processing

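Over 14 other fits, 23 to 32 of the genes were called higher, 22 of the 26 in every fit. Those lost in at least 1 were POX09596, POX09601, POX09615 and POX09616, the last in 9 fits. All 26 kept their direction. The share of all tested genes called higher was 3.43% to 12.4%. The longest block had 14 genes without the low-count filter and 13 when untested genes did not end a block. The median log2 change of tested genes was 1.45 by limma on log2(FPKM + 1), 1.25 without its filter and 0.75 with a pseudocount of 5, which shrinks low genes and put POX09591 (2.76) above POX09590 (2.75). Leaving out 1 library gave 0 to 1 called lower (POX09580, without MuPOX06509 F). With the letter as a replicate block 27 genes were called higher and 1, POX09580, lower. Over all tested genes that fit called 898 higher and 1074 lower, against 444 and 606 in the main fit. Same-letter deviations from the strain means correlated at 0.39, 0.063 and 0.054 for F, S and T. The labels do not name pairs and the main fit used none, but whether the letters mark pairs cannot be told from these values. The F libraries of both strains correlated best with each other, and no S or T library correlated best with its own letter. Depth limits the 12 untested genes.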

Other observations

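Just below the stretch, 8 genes from POX09555 to POX09570 were called higher by the same fit, with log2 changes of 0.94 for POX09564 to 2.85 for POX09563. POX09563 was at 28.5, 43.8 and 39.5 FPKM in MuPOX06509 libraries F, S and T and 4.65, 5.57 and 5.59 FPKM in Ku70, and, like POX09590, it was not highest in library F. POX09570 was listed with the same count and FPKM as POX09834 in each of the 6 libraries, the only such pair among the 8057 genes with over 100 counts, so the reads of these 2 IDs cannot be told apart and either may hold the rise of 2.56 ± 0.41 (SE).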
